A study of Homo sapiens with 16 samples.

Results

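The marks H3K27me3 and H3K4me1 were examined at 10 genes of the retinoic acid pathway in BE2C cells, an established human neuroblastoma cell line with amplified MYCN: the receptors RARA, RARB, RARG, RXRA, RXRB and RXRG, the catabolic enzymes CYP26A1 and CYP26B1, and the carrier proteins CRABP1 and CRABP2. The list was set by name and holds 10 of the 20090 protein-coding genes annotated on the autosomes and chromosome X. Each gene was taken from its first to its last annotated base on hg19 with 10 kb on each side. Both marks had been mapped by CUT&Tag, which uses an antibody to bring a DNA-cutting transposase to the marked nucleosomes and so tags the DNA for sequencing there. The 16 libraries fell into 8 groups of 2. In the knockdown experiment, cells that had received siRNA siKDM6B33 against KDM6B were compared with cells that had received the control siRNA siCtrl. In the compound experiment, cells kept in 2.5 µM GSK-J4 were compared with cells kept in 0.1% DMSO. All cells were collected after 72 h, and each experiment had its own controls. On hg19 the receptor genes are at chr17:38465432-38513895 (RARA), chr3:24729378-25639423 (RARB), chr12:53604351-53626764 (RARG), chr9:137208944-137332431 (RXRA), chr6:33161365-33168442 (RXRB) and chr1:165370159-165414592 (RXRG). The enzyme genes are at chr10:94833232-94837642 (CYP26A1) and chr2:72356367-72374991 (CYP26B1), and the carrier genes at chr15:78632695-78640567 (CRABP1) and chr1:156669398-156675608 (CRABP2). Results come from 1 cell line and 1 siRNA, and the lists hold no measure of KDM6B itself.

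Retinoic acid is made from vitamin A inside the cell. CRABP1 and CRABP2 carry it, the CYP26 enzymes oxidise and so inactivate it, and retinoic acid receptors (RARA, RARB, RARG) bind it as partners of the retinoid X receptors (RXRA, RXRB, RXRG). These pairs sit on response elements, which are repeats of a 6-letter motif, and RARB and CYP26A1 are well known genes that retinoic acid switches on through such elements. Retinoic acid makes many neuroblastoma cells differentiate. H3K27me3 is the Polycomb mark of silenced genes and the substrate of the demethylase KDM6B, and GSK-J4 is an inhibitor of KDM6 enzymes. H3K4me1 marks enhancers and the surroundings of transcription starts.

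The response elements of these genes are shown first, because the marks over them differed from gene to gene. The motif searched was AGGTCA, in which the first letter could also be G and the third letter T, as a direct repeat with 1, 2 or 5 bases between its copies on either strand. A match lay within 1 kb of the canonical start in 3 of the 10 genes, RARB, CYP26A1 and CRABP2, and among all 19460 canonical starts the share was 4.8%. These 3 are shown with 2 of the 3 further matches that lay within 100 bp of a narrow peak summit in any library, at CYP26A1 and in an intron of RARA between internal starts at 32.2 and 33.2 kb. The other one, also in a RARA intron at 24.1 kb, is not shown. The full windows hold more matches, 7 at CYP26A1, 5 at RARA, 4 at CRABP2 and 23 at RARB, so those shown were partly chosen by the peaks over them. Matches are called elements below, as a name for the letters and not as evidence that a receptor binds. Distances below are from the canonical start, and negative ones lie before it. The sequences are from GRCh37, read 5′ to 3′ on the strand of the match, and the copies of the motif are in capitals.
RARB, chr3:25469701-25469717, plus strand, at -45 bases, in the untranslated exon of an alternative transcript: ggtagGGTTCAccgaaAGTTCActcgc
CYP26A1, chr10:94833560-94833576, minus strand, at -82 bases, in the untranslated exon of an alternative transcript: caattAGTTCAcccaaAGTTCAtcttt
CYP26A1, chr10:94831674-94831690, plus strand, at -1.97 kb, before the gene: tgcagGGGTCAcaggcGGGTCAggccc
CRABP2, chr1:156675820-156675832, minus strand, at -451 bases, before the gene: gatccAGTTCAgGGTTCAatgga
RARA, chr17:38497905-38497921, plus strand, at 32.5 kb, in an intron: aggcgAGTTCAgcgagAGTTCAgccgc

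The marks over these elements differed between genes and, for H3K27me3, between experiments. Both CYP26A1 elements shown and the CRABP2 element shown lay inside an island of the library's own mark in all 16 libraries, where an island is a broad region that the authors' caller found enriched. The RARA element shown lay in an H3K4me1 island in all 8 libraries of that mark and in an H3K27me3 island in DMSO and GSK-J4 only. The RARB element shown lay in an H3K27me3 island in siCtrl and siKDM6B33 only, and in no H3K4me1 island. Of all 7 CYP26A1 matches, 5 lay in an H3K27me3 island and 3 in an H3K4me1 island of any library. Narrow peaks seldom centred on an element. A match lay within 100 bp of the summit in 10 of 1017 H3K4me1 narrow peaks of the 10 genes, which is 0.983% beside 0.329% of all H3K4me1 peaks. For H3K27me3 it was 1 of 308 peaks, 0.325% beside 0.4%, and this peak was at the RARA match at 24.1 kb. The RARA match at 32.5 kb alone lay beside a summit in 6 of 8 H3K4me1 libraries, so it supplied most of the 10. When the match had to lie in the narrow peak itself, the H3K4me1 share was 0.0983%, beside 0.0499% to 0.083% of all peaks of a library. The summit nearest to the RARB element was 25 bases away in siKDM6B33 H3K4me1 replicate 2, while in the other 7 H3K4me1 libraries it was at least 20752 bases away. Over the full windows the 10 genes held 50 matches, or 3.59 per 100 kb beside 4.39 in the genome, and CYP26A1 with 28.7 per 100 kb was the densest of the 10.

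Facts of the libraries that bear on what follows are these. The lists give regions and no reads, so library depth was read from the genome background of the peak caller, in tags per caller window, which ran from 0.0298 to 0.0539 for H3K27me3 and from 0.0483 to 0.107 for H3K4me1. Lists held 7171 to 16669 H3K27me3 islands and 17762 to 24916 H3K4me1 islands. GSK-J4 H3K27me3 replicate 1 stood apart from its partner, with 16669 islands of median width 3000 bp against 8002 islands of 7400 bp. The H3K27me3 islands of the compound experiment lay largely on H3K4me1 islands: 53.5% of the bases in both DMSO H3K27me3 lists were also in both DMSO H3K4me1 lists, against 9.13% in siCtrl. In all 16 libraries the island with the highest score lay within 1 Mb of MYCN. A group of 2 against 2 cannot reach an exact permutation p below 0.33, so a gene was called higher or lower where both treated libraries lay above or below both controls, and each count is given beside the share of all protein-coding genes called by the same rule.

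**Figure D1:**
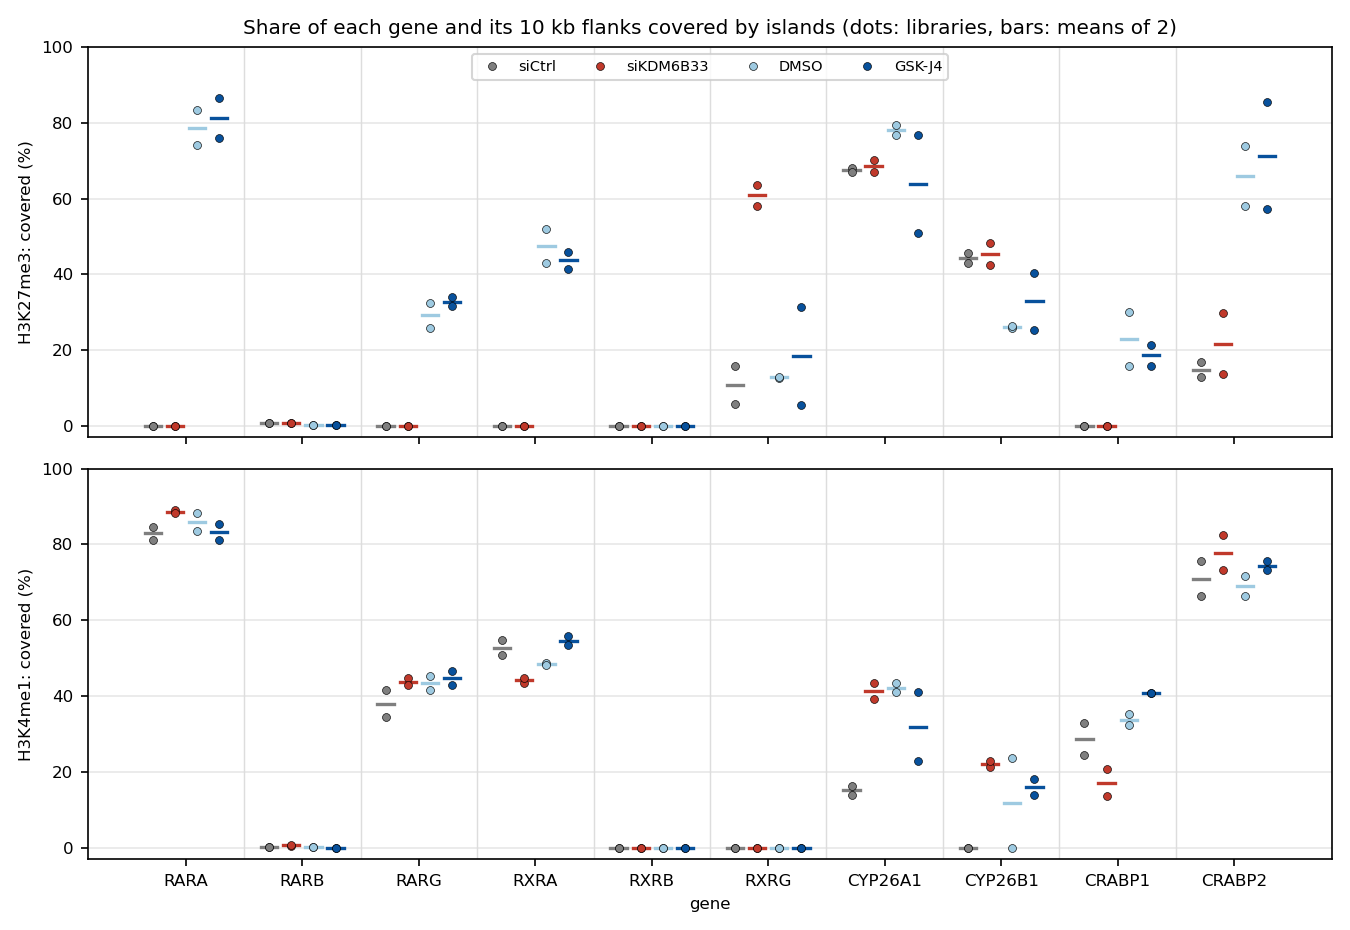
Percent of each gene and its 10 kb flanks covered by H3K27me3 islands (upper panel) and H3K4me1 islands (lower panel), with a dot for each library and a bar for the mean of 2. RXRG gained H3K27me3 in both siKDM6B33 libraries, and RARA, RARG, RXRA and CRABP1 carried H3K27me3 islands in DMSO and GSK-J4 but not in siCtrl or siKDM6B33.

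H3K27me3 coverage after KDM6B knockdown was higher at 1 gene, RXRG, and lower at none. RXRG, the retinoid X receptor of neural and muscle lineages, had 5.9% and 15.8% of its window covered in siCtrl and 58.1% and 63.6% in siKDM6B33, a rise of 50 percentage points (10.9% ± 7.02 to 60.9% ± 3.9, SD, n = 2 per group, exact permutation p = 0.33). Of all protein-coding genes 11.2% were called higher and 3.64% lower, and of the 6223 genes with an island in any of the 4 libraries 36% and 11.7%. Only 5 of the 10 genes had such an island, and 1 of 5 is not above the background. The siKDM6B33 lists cover more of the genome (89.8 and 87.3 Mb against 53.7 and 54.2 Mb). They also have a higher genome background (0.0539 and 0.0529 against 0.0395 and 0.0401). With the covered length made equal RXRG stayed apart with a rise of 25.3 points, and RARB and CYP26A1 were called lower. Of all protein-coding genes 4.25% were then higher and 10% lower. With narrow peaks as the covered regions RARA, RARB, RXRG and CYP26B1 were higher and none lower, and no share of all genes was taken there. In siCtrl the mark at RXRG was limited to 3.8 and 5.8 kb around the start, plus 1 island of 4.4 kb inside the gene in replicate 2, with a score of 58.2 against 554.0 for the island at the start. In siKDM6B33 the island at the start measured 9.8 and 8 kb, and 5 or 6 further islands lay over the gene and its flanks. The gene ends 44.2 kb from the start, so the island that ran to 65.6 kb passed the 10 kb flank. Only its part inside the window counts as coverage. The summit at the start itself did not rise. It stood 379.7 and 274.3 times above genome background in siCtrl and 222.6 and 170.1 times in siKDM6B33, a ratio of 0.601 beside a median of 0.706 over the 2084 sites with an H3K27me3 summit in all 8 libraries.

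In siCtrl the catabolic enzymes carried the broadest H3K27me3 of the 10 genes. CYP26A1 was covered over 68% and 67.1% of its window in siCtrl, a level that 1.07% of all protein-coding genes reached, and over 67.1% and 70.3% in siKDM6B33. CYP26B1 was covered over 43% and 45.6% in siCtrl and 42.5% and 48.2% in siKDM6B33. For neither gene were the groups apart in the lists as deposited. With the covered length made equal, CYP26A1 was lower after knockdown by -12.8 percentage points, against 1.17 as deposited. The CYP26A1 island of siCtrl replicate 1 ran from -9.45 to 7.15 kb of the start and ranked 162nd of 10551 islands by score. CYP26C1, the neighbouring enzyme gene, lies in the same window, so the island is shared. CYP26A1 had 12 and 11 H3K27me3 narrow peaks in siCtrl and 9 and 10 in siKDM6B33. CYP26B1 had 2 and 3 peaks in siCtrl and 4 and 5 in siKDM6B33. CRABP2, the carrier that hands retinoic acid to the receptors, had 13% and 16.8% of its window covered in siCtrl and 29.8% and 13.7% in siKDM6B33, and the groups overlapped. In narrow peaks 3 of the 10 genes had more after knockdown (RARB, RXRG and CYP26B1) and 1 had fewer (CYP26A1), beside 11.5% and 4.34% of all protein-coding genes. The siKDM6B33 lists hold 44197 and 44409 peaks against 32309 and 33310. Per 10000 peaks of the library only CYP26B1 was higher, and RARG and CYP26A1 were lower, beside 9.76% and 13.9% of all protein-coding genes. Among peaks with a −log10 q of at least 5 none of the 10 genes was called, beside 3.14% and 2.4%.

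**Figure D2:**
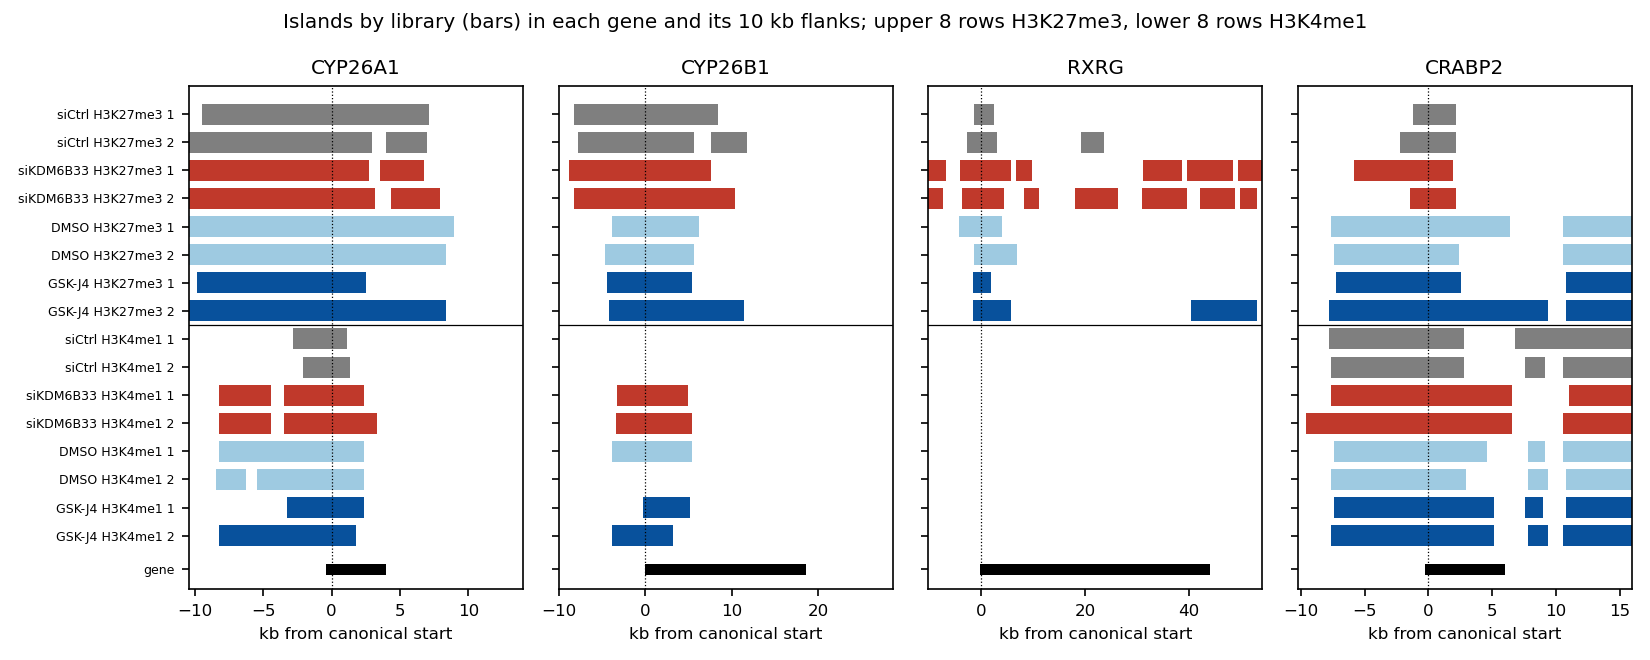
Islands of each library along CYP26A1, CYP26B1, RXRG and CRABP2, in kb from the canonical start on the strand of the gene, with H3K27me3 in the upper 8 rows, H3K4me1 in the lower 8 rows and the gene as a black bar. The RXRG islands of siKDM6B33 reach out to both flanks. Compared with siCtrl, both CYP26 genes gain H3K4me1 around the start in siKDM6B33 while the H3K27me3 island stays. DMSO also has H3K4me1 there, at CYP26B1 in replicate 1 only.

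H3K4me1 coverage after knockdown was higher at 5 of the 10 genes (RARA, RARB, RARG, CYP26A1 and CYP26B1) and lower at 2 (RXRA and CRABP1). Across all protein-coding genes 48.1% were called higher and 10.2% lower, and among the 14463 with an island 66.9% and 14.2%. The count of 5 higher among the 8 genes with an island is near that background. The median difference was 3.03 percentage points over the 10 genes and 3.95 over the 14463. With the covered length made equal, RARA and RARB were no longer apart, while RARG, CYP26A1 and CYP26B1 stayed higher and RXRA and CRABP1 lower, beside 40.5% and 12.5% of all protein-coding genes. The RARA call also ended with a flank of 5 kb, where its difference was 1.45 points against 5.7. Over the gene body alone RARA (0.825 points) and RARG (5.35 points) were not called, and CRABP2 was higher by 51.6 points. CYP26A1 rose from 16.4% and 13.9% in siCtrl to 39.3% and 43.4% in siKDM6B33, a rise of 26.2 points that was 10.7 at equal covered length, and its H3K4me1 narrow peaks went from 0 and 0 to 11 and 12. The island at its start went from 4 and 3.4 kb to 5.8 and 6.8 kb, and its score from 111.5 and 114.5 to 1390 and 1545. A further island of 3.8 kb was called from -8.25 to -4.45 kb in both siKDM6B33 libraries and in neither siCtrl library. DMSO, the other control, had islands over this stretch too. They ran from -8.25 to 2.35 kb in replicate 1, and from -8.45 to -6.25 and -5.45 to 2.35 kb in replicate 2. With 43.4% and 41% covered, CYP26A1 in DMSO was near the siKDM6B33 level. CYP26B1 had no H3K4me1 island in siCtrl and 1 in each siKDM6B33 library, from -3.21 to 4.99 kb of the start in replicate 1, which covered 21.2% and 22.8% of the window. Both enzyme genes kept H3K27me3 at the start: the bases in both marks grew from 3.2 to 9.6 kb at CYP26A1 and from 0 to 8.2 kb at CYP26B1. Since the cells were profiled in bulk, 2 marks on the same bases can come from the same or from different cells.

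The receptors differed from each other. RARA was covered by H3K4me1 over 81.2% and 84.7% of its window in siCtrl and 89.1% and 88.2% in siKDM6B33. Its summit 9.07 kb after the canonical start and close to an internal start at 9.1 kb, rose from 38 and 50 tags to 109 and 102 tags, which is 1.97 times higher over genome background, and 88.1% of all sites had the same or a lower ratio. With GSK-J4 the same site was lower, at a ratio of 0.749. RARG went from 41.5% and 34.4% to 44.8% and 42.9%. RXRA, the broadly expressed partner of the receptors, fell from 54.7% and 50.9% to 43.5% and 44.9%, and its H3K4me1 narrow peaks from 64 and 62 to 45 and 39. It had no H3K4me1 island within 1 kb of its canonical start in any library, and its islands began 28.5 kb or further into the gene. In narrow peaks 4 genes had more after knockdown (RARA, CYP26A1, CYP26B1 and CRABP2) and RXRA had fewer, beside 37.6% and 11.7% of all protein-coding genes. CRABP1, the carrier expressed in neural crest cells, fell from 24.4% and 33% to 20.8% and 13.6%. Its main island, over the end of the gene, had scores of 1099 and 921.6 in siCtrl and 538.0 and 558.4 in siKDM6B33. Measured instead by the bases in narrow peaks, CRABP1 was higher after knockdown, so its direction depends on the kind of region. CRABP2 had 75.6% and 66.4% in siCtrl and 73.3% and 82.4% in siKDM6B33, and the groups overlapped.

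**Figure D3:**
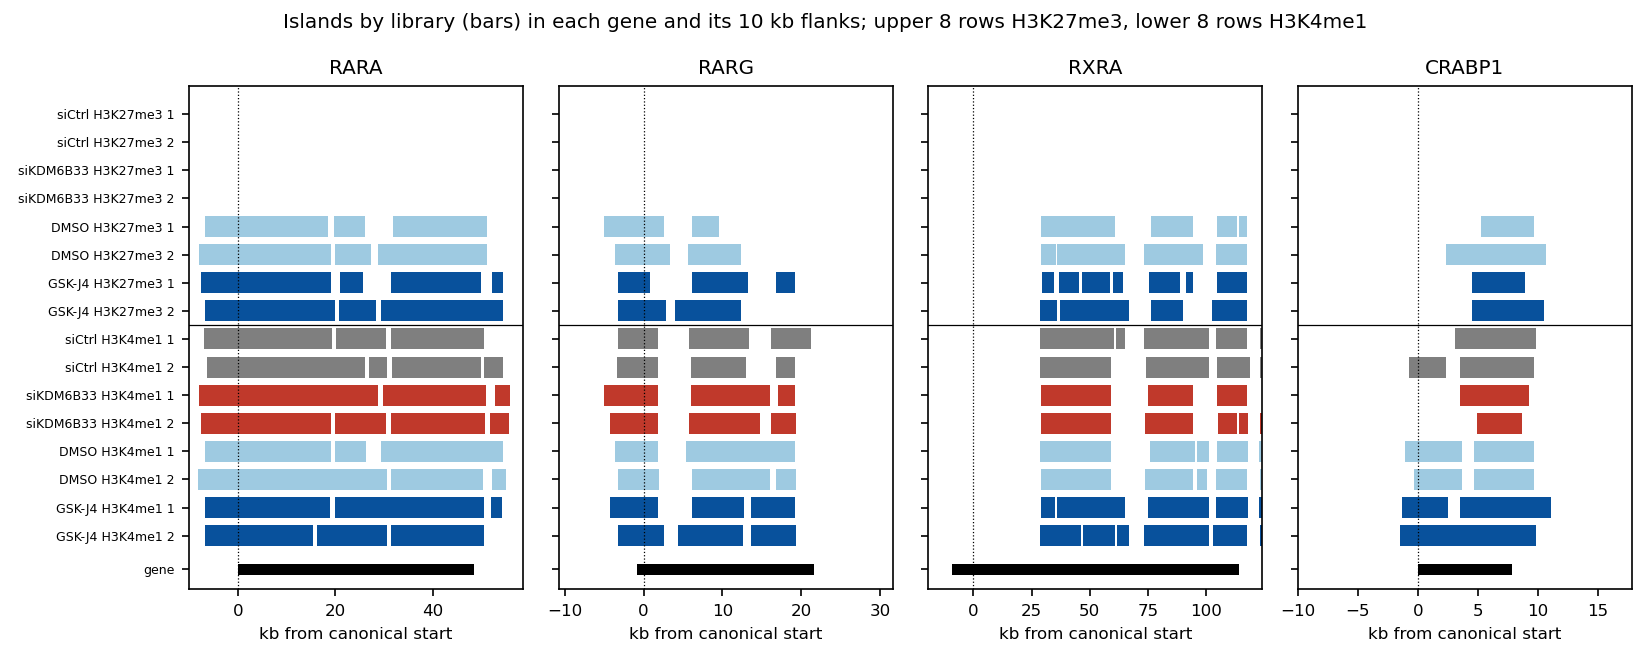
Islands of each library along RARA, RARG, RXRA and CRABP1, in kb from the canonical start, drawn as for the CYP26 genes. H3K27me3 islands are drawn for DMSO and GSK-J4 only and lie over the H3K4me1 islands of the same arms.

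Single sites were compared where a summit had been called in all 8 libraries of the mark, with summit tags divided by the genome background of the library. Such H3K4me1 sites numbered 29 of 11344 and lay in 6 of the 10 genes, 12 of them at RXRA and 7 at RARA. A site missing from any library is left out, so gained sites are not counted. CYP26A1, with 0 and 0 narrow peaks in siCtrl and 11 and 12 in siKDM6B33, has no shared site. After knockdown 2 sites were higher and 20 lower, beside 25.5% and 55.2% of all sites, and the median ratio was 0.731 for the 29 and 0.741 for all sites. Shared summits were lower in general over this background, which was higher in siKDM6B33 (0.107 and 0.105 against 0.0902 and 0.0849), and single sites are read against that shift. At RXRA 10 of 12 sites were lower, with ratios from 0.246 to 0.913 over the 12, and 7 were lower when scaled to the median of all shared sites. The lowest, 32.1 kb into the gene, went from 50 and 57 tags to 18 and 14, a ratio of 0.246 that 1.96% of all sites reached or undercut. The site 87.2 kb into the gene fell from 68 and 67 tags to 29 and 27 tags, a ratio of 0.342. Scaled instead to the median of all shared sites, 5 of the 29 were higher and 12 lower, beside 37.5% and 40.1% of all sites, and the named RXRA sites, at 0.321 and 0.446, stayed lower. The reference bases around the first of these sites, chr9:137250292-137250491 (plus strand, intron), are shown because this was the site with the lowest ratio of the 29, with the copy of the motif in capitals.
RXRA site: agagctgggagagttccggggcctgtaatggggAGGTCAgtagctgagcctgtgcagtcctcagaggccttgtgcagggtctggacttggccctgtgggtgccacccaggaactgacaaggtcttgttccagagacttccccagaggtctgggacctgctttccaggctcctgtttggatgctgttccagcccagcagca

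The H3K4me1 summits of CRABP1 moved in opposite directions in the 2 experiments. Its 2 shared sites lay 7.63 and 7.98 kb from the start, at and just past the end of the gene. At the second, tags went from 37 and 36 in siCtrl to 20 and 22 in siKDM6B33 and from 12 and 13 in DMSO to 25 and 19 in GSK-J4. Over genome background the ratio was 0.475 after knockdown and 1.66 with GSK-J4, and 97.1% of all sites had the same or a lower ratio with GSK-J4. After knockdown 23.5% of all sites had the same or a lower ratio. The directions were the same when scaled to the median of all shared sites (0.618 and 1.96). Island coverage of CRABP1 fell by 11.5 percentage points after knockdown and was 7.18 points higher with GSK-J4. The reference bases around this site, chr15:78640573-78640772 (plus strand, past the end of the gene), hold no copy of the motif and are shown because both CRABP1 sites were called in opposite directions. Sites of other genes were also called opposite ways, at RXRA 51.7 kb (0.4 after knockdown, 1.51 with GSK-J4), at RXRA 108.8 kb (0.731 and 1.1), at RARA 9.07 kb (1.97 and 0.749) and at RARA -2.06 kb (1.28 and 0.881). Scaled to the median of all shared sites, RXRA 51.7 kb stayed opposite (0.52 and 1.77) and the other 3 did not. RXRA 30.5 kb (0.513 after knockdown and 1.28 with GSK-J4) and CRABP2 -0.637 kb (1.22 and 0.79) were then called opposite ways as well. Over genome background, 3 of the 12 RXRA sites were higher and 3 lower with GSK-J4.
CRABP1 site: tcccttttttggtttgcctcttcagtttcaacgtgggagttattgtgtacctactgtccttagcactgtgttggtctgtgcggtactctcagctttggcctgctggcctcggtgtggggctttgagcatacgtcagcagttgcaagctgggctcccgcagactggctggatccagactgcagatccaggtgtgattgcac

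**Figure D4:**
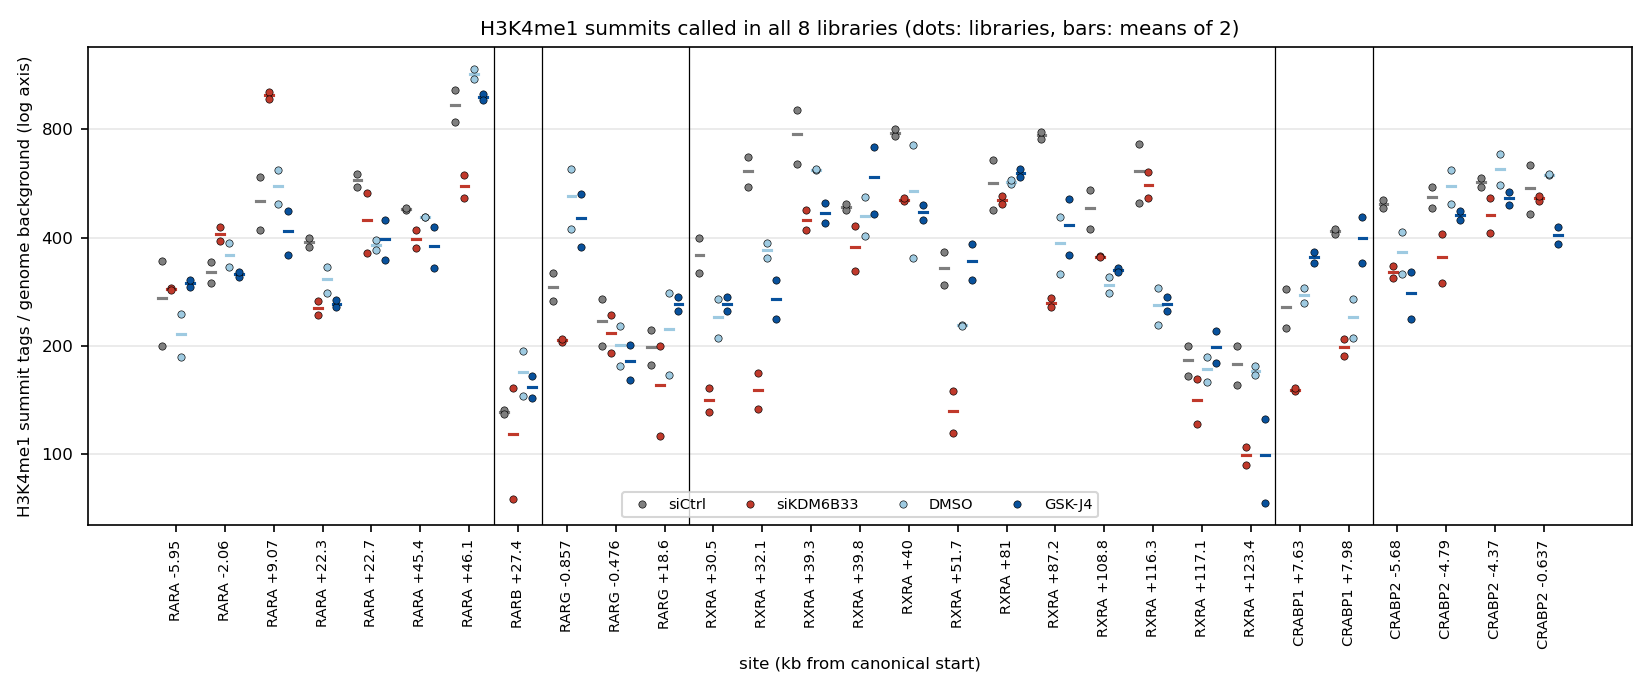
H3K4me1 summit tags divided by the genome background of each library (log axis), with a dot for each library and a bar for the mean of 2. The 29 sites with a summit in all 8 libraries lie in 6 of the 10 genes. The RXRA sites at 30.5, 32.1, 51.7 and 87.2 kb are low in both siKDM6B33 libraries, and the RARA site at 9.07 kb is high in them. The CRABP1 site at 7.98 kb is lower in siKDM6B33 than in siCtrl and higher in GSK-J4 than in DMSO. Its GSK-J4 values are not above those of siCtrl as a group.

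With GSK-J4, H3K27me3 island coverage was higher or lower at none of the 10 genes, beside 5.97% higher and 4.51% lower of all protein-coding genes and 14.4% and 10.9% of the 8343 with an island. Measured instead by the bases in narrow peaks, RARA, RARB, RARG, RXRA, CYP26B1, CRABP1 and CRABP2 were higher and RXRG lower. No share of all genes was taken by that measure. RARA had 74.2% and 83.3% in DMSO and 76% and 86.5% in GSK-J4. RXRA had 43.1% and 51.9% against 41.5% and 45.9%, and CRABP2 74% and 58% against 57.2% and 85.5%. CYP26A1 had 79.3% and 76.9% in DMSO and 50.8% and 76.9% in GSK-J4, where the low value is that of replicate 1, the library that stood apart. Without it 5 genes (RARA, RARG, RXRG, CYP26B1 and CRABP2) would be called higher, and without its partner RXRA, RXRG, CYP26A1, CYP26B1 and CRABP2 would be called lower. RXRG, CYP26B1 and CRABP2 are in both sets, so their direction rests on which replicate is kept. By the same rule of 2 libraries against 1, 13.8% of all protein-coding genes were higher and 5.95% lower without replicate 1, and 18.8% and 12.4% without replicate 2. Narrow peaks were more numerous at 4 genes: RARA (5 and 3 against 11 and 9), RARG (3 and 3 against 6 and 6), RXRA (7 and 5 against 20 and 12) and CRABP1 (1 and 1 against 4 and 3). Of all protein-coding genes 17.1% had more and 2.35% fewer. The GSK-J4 lists hold 61132 and 40522 peaks against 29688 and 34645. Per 10000 peaks RARA, RXRA and CRABP1 were higher, RARG was not called, and RXRG and CYP26A1 were lower, beside 11.4% and 14% of all protein-coding genes. Among peaks with a −log10 q of at least 5 the genes called were RXRA and CRABP2, both higher, beside 4.64% higher and 1.43% lower.

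The H3K27me3 islands of RARA, RARG, RXRA and CRABP1 were seen only in the compound experiment, controls included, and they lay on H3K4me1. Of all protein-coding genes 8.27% had an H3K27me3 island in all 4 libraries of the compound experiment and in none of the knockdown experiment. In DMSO 98% of the H3K27me3 bases at RARA, 96.7% at RXRA, 87.5% at RARG and 100% at CRABP1 were also covered by H3K4me1 in both replicates. Over the 10 genes together the share was 83% in DMSO and 85.4% in GSK-J4, against 15.5% in siCtrl and 32% in siKDM6B33. Genome-wide it was 53.5% in DMSO, 62.5% in GSK-J4, 9.13% in siCtrl and 12% in siKDM6B33. The siCtrl and DMSO libraries differ in experiment as well as in treatment, and these cannot be told apart. CYP26A1, CYP26B1, RXRG and CRABP2 had an H3K27me3 island at the canonical start in all 8 libraries of the mark.

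With GSK-J4, H3K4me1 coverage was higher at 3 genes (RXRA, CRABP1 and CRABP2) and lower at 1 (RARB), beside 11.5% and 8.68% of all protein-coding genes and 23.7% and 18% of the 9713 with an island. RXRA went from 48.8% and 48.2% in DMSO to 53.4% and 55.8% in GSK-J4. CRABP1 went from 35.2% and 32.3% to 40.9% and 40.9%. CRABP2 went from 71.7% and 66.4% to 73.3% and 75.6%, and with the covered length of the libraries made equal this difference turned to -0.382 percentage points. At equal covered length CRABP1 had a difference of 8.97 points but its groups overlapped, RXRA stayed higher, RARB stayed lower and RARA was also called lower, beside 9.14% higher and 9.53% lower of all protein-coding genes. No gene had more or fewer H3K4me1 narrow peaks in both GSK-J4 libraries, beside 11.6% and 7.35% of all protein-coding genes. CYP26A1 had 43.4% and 41% in DMSO and 22.9% and 41% in GSK-J4, and CYP26B1 had 23.8% and 0% against 14% and 18.1%. At the 29 shared sites 6 were higher and 11 lower, beside 13.5% and 36.3% of all sites, and scaled to the median of all shared sites 10 were higher and 3 lower, beside 22.6% and 21.8%. Of the 6 shared H3K27me3 sites, 3 were lower after knockdown and 1 with GSK-J4, and none was higher, beside 65.9% and 63% of all sites lower and 5.71% and 2.21% higher. Scaled to the median of all shared sites, 4 of these 6 were higher after knockdown and 3 with GSK-J4, and none lower, beside 26.7% and 19.1% of all sites higher and 26% and 24% lower. No direction is drawn from them.

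RARB, the receptor gene best known as a target of retinoic acid, spans 910 kb in this annotation, so its percentages are small and its islands are given in kb. H3K27me3 was called at a distal start at -598.9 kb of the canonical one in all 8 libraries, over 1.8 to 3.4 kb. At the canonical start, over its response element, an H3K27me3 island of 4.6 and 4 kb was called in siCtrl and of 4 and 3.8 kb in siKDM6B33, and none in DMSO or GSK-J4. H3K4me1 lay 27.4 kb after the canonical start, in an intron, in islands of 2.2 and 2.4 kb in siCtrl, 3 and 4.6 kb in siKDM6B33, and 1.4 and 2.6 kb in DMSO. No island was called there in either GSK-J4 library, but the narrow peak remained, with 9 and 8 tags in GSK-J4 and 11 and 7 tags in DMSO. Over genome background these overlapped (193.3 and 144.9 in DMSO, 164.5 and 143.1 in GSK-J4). Both siKDM6B33 libraries, and no other, also had an H3K4me1 island at the distal start, of 2 and 1.6 kb. Over the whole window H3K4me1 covered 0.237% and 0.258% in siCtrl and 0.538% and 0.667% in siKDM6B33, and 0.151% and 0.28% in DMSO and 0% and 0% in GSK-J4. Over the whole window H3K27me3 covered 0.774% and 0.774% in siCtrl and 0.753% and 0.774% in siKDM6B33, and the groups overlapped. A window of 189.7 kb, not planned, began 10 kb before the canonical start. In it H3K27me3 covered 2.43% and 2.85% in siCtrl and 2.11% and 2% in siKDM6B33. H3K4me1 there covered 1.16% and 1.27% in siCtrl, 1.58% and 2.43% in siKDM6B33, 0.738% and 1.37% in DMSO, and 0% and 0% in GSK-J4. A share of all protein-coding genes was not taken for this window.

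**Figure D5:**
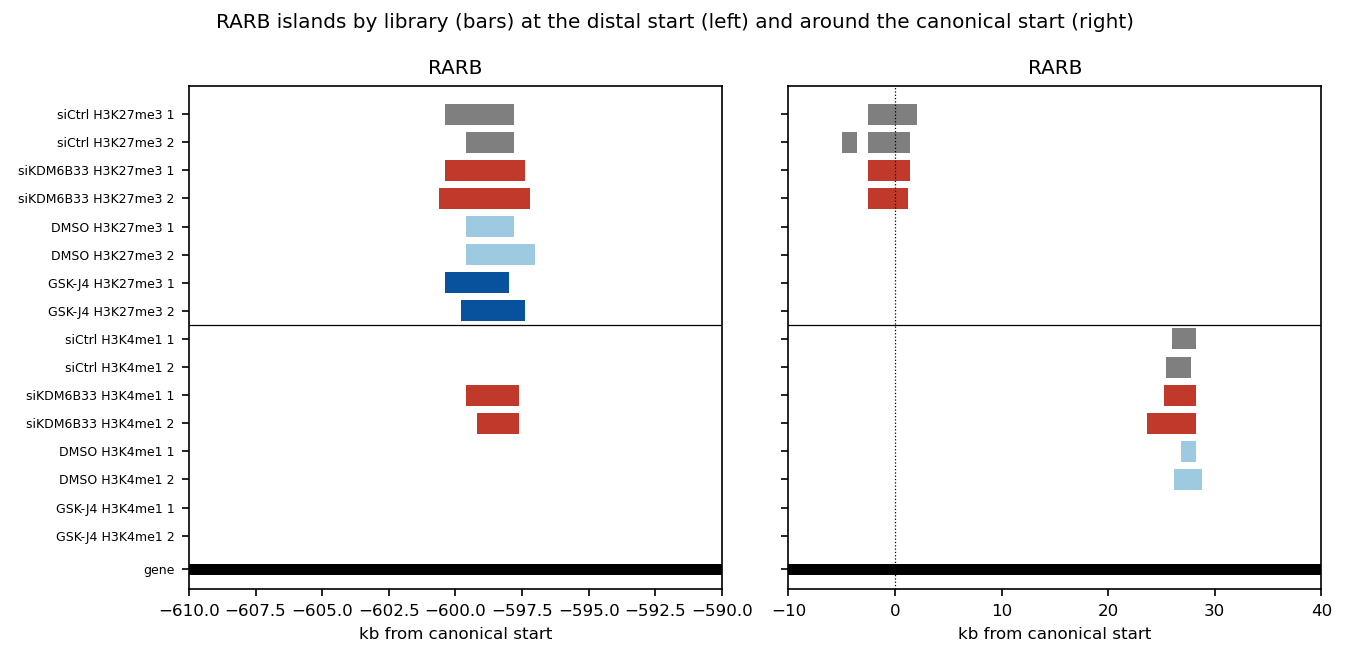
Islands of each library at RARB around the distal start (left panel, about 599 kb before the canonical start) and around the canonical start (right panel), in kb from the canonical start. H3K27me3 at the canonical start is drawn for siCtrl and siKDM6B33 only, and H3K4me1 near 27.4 kb for siCtrl, siKDM6B33 and DMSO.

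RXRB gave no measurement. Its window on chromosome 6 held 0 islands and 0 narrow peaks of either mark in all 16 libraries. The nearest summits of any library on its 2 sides were 216.1 kb apart. Of the 156 protein-coding genes touching 29 to 33 Mb of chromosome 6, the stretch that ends just before RXRB, 78.8% had no narrow peak in any library, against 7.28% of all genes. Whether reads of this region can be mapped uniquely was not tested.

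In the lists as deposited the H3K4me1 island change of 3 genes pointed opposite ways in the 2 experiments. The knockdown difference minus the compound difference was -14.7 percentage points at RXRA, -18.7 at CRABP1 and 0.57 at RARB. These genes were picked by their calls among 35 differences of coverage and narrow peaks, and such calls fix the exact permutation p at 0.0556, the smallest that 8 libraries allow, so it is no further test. At equal covered length only RXRA kept both calls, since RARB was not called after knockdown (0.194 points) and CRABP1 not with GSK-J4, where its difference was 8.97 points against 7.18 as deposited and its replicates overlapped the controls. With narrow peaks as the covered regions RXRA was not called with GSK-J4, and CRABP1 was higher in both experiments. With islands of at least 2 kb RARB was not called with GSK-J4. No gene was called for H3K4me1 narrow peaks with GSK-J4, so the calls of narrow peaks cannot be compared between the experiments.

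Of 37 other genes of the pathway, 17 had higher and 9 lower H3K4me1 coverage after knockdown, beside 48.1% and 10.2% of all protein-coding genes. The number that rose is near the background, and the 9 of 37 that fell are above it. By 10 or more percentage points, coverage rose at NR2F2 (38.7% and 41.4% to 69.3% and 61.2%), NR2F1, CYP26C1, MEIS1, RDH11, FABP5, NR1H2, NR1H3 and MEIS2. The share of all protein-coding genes that rose by this much was not taken. CYP26C1 lies in the CYP26A1 window, so its rise can come from the islands already described for CYP26A1. Among those that fell by 10 or more points was TGM2 (49.3% and 44.9% to 12.5% and 16.2%). NR2F1 and NR2F2 are orphan receptors that compete for the same elements, and TGM2 is a gene that retinoic acid induces. With GSK-J4, 7 were higher and 3 lower for H3K4me1, beside 11.5% and 8.68%. For H3K27me3, 4 were higher and 0 lower after knockdown, beside 11.2% and 3.64%, and 6 higher and 1 lower with GSK-J4, beside 5.97% and 4.51%. With GSK-J4, THRA, a receptor for thyroid hormone, rose from 30.6% and 31.3% to 40.3% and 56.5%. The median difference over the 37 genes was 0 in each comparison but H3K4me1 after knockdown, where it was 0.857 points. Ranked by mean absolute difference in coverage over the 16 libraries, the genes most like CRABP1 were TSC2 (3.7 percentage points), CAMKK1 (3.72) and MEGF6 (3.82).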

How the data were processed

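CUT&Tag libraries of BE2C cells were analysed from the deposited lists, 16 of islands and 16 of narrow peaks, 1 of each per library, not pooled. According to the study's methods and the labels' processing notes, the authors aligned reads to hg19 with BWA 0.7.12, removed duplicates with Picard 1.65, kept uniquely mapped pairs with fragments of 150 to 2000 bp, called islands with SICER 1.1 (window 200 bp, gap 600 bp, FDR 0.00001) and narrow peaks with MACS2 (2.2.7.1 in the methods, 2.1.1 in the notes) at q 0.05. The deposited island score grows with depth and width. The deposited fold (a ratio over local background), −log10 p and −log10 q belong to a peak within its own library. Spike-in factors and reads per region were not used here, so the limma test of the study was not run.

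Here, coverage is the share of a gene with 10 kb flanks (GENCODE 44 on GRCh37) that lies in islands, and narrow peaks were counted by their centre. Fold and −log10 p together gave whole summit tags and library background. Shared sites joined summits at most 150 bp apart and were added after the data had been seen. Members and gene lists were chosen with earlier results of these data known. The named genes were the 10 members, and other pathway genes that were apart by at least 10 percentage points. A few genes that met the rules for other pathway genes or for likeness are not reported here. Likeness to RARB is left out because its coverage is near 0. Groups and replicate numbers come from the titles. The replicates are biological according to the study. Tests were exact two-sided permutations. Alternatives were other flanks, island filters, equal covered length or number, narrow peaks as regions, a stricter q, a replicate block and leaving out each library. Functions were tested on simulated data. Python 3.11.15, NumPy 2.4.6, pandas 2.3.3, SciPy 1.17.1 and matplotlib 3.10.9 were used.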

Additional observations from a re-analysis of the deposited data

Results flagged for a closer look

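The H3K4me1 island coverage of 3 genes moved one way in both siKDM6B33 libraries and the other way in both GSK-J4 libraries. The knockdown difference minus the compound difference was -14.7 percentage points at RXRA (lower after knockdown, higher with GSK-J4), -18.7 at CRABP1 (the same directions) and 0.57 at RARB (higher after knockdown, lower with GSK-J4). They were picked by these calls among 35 differences, and the calls fix the exact permutation p at 0.0556, the smallest it can give, so the opposition was not tested further. At equal covered length only RXRA kept both calls: RARB was not called after knockdown (0.194 percentage points) and CRABP1 not with GSK-J4 (8.97, with overlapping groups, against 7.18 as deposited). With narrow peaks as the covered regions RXRA was not called with GSK-J4, and CRABP1 was higher in both experiments. With islands of at least 2 kb RARB was not called with GSK-J4. At RARB the narrow peak of the GSK-J4 libraries remained where the island was not called.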

How the results depend on the processing

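Numbers of members called (either direction) were 1 for H3K27me3 knockdown, 0 for H3K27me3 compound, 7 for H3K4me1 knockdown and 4 for H3K4me1 compound by islands, and 4, 4, 5 and 0 by narrow peaks. For H3K27me3 knockdown, islands gave 3 with equal covered length (CYP26A1 and RARB then lower) and 4 with narrow peaks as covered regions. For H3K27me3 compound they gave 1 with equal covered length (RXRG lower) and 1 with an equal number of islands (RARB lower). They gave 8 with narrow peaks as covered regions (7 higher, RXRG lower) and 3 with the replicate block (RARA and RARG higher, RXRA lower). Where no share of all protein-coding genes is given above for a setting, none was taken. Such a count cannot be read against a background. For H3K4me1 compound they gave 2 with narrow peaks as covered regions. Narrow peak counts gave 0 (H3K27me3 knockdown) and 2 (H3K27me3 compound) at a −log10 q of at least 5, and 2 (H3K4me1 compound) per 10000 peaks. CRABP2 turned to -0.382 percentage points for H3K4me1 compound at equal covered length. With narrow peaks as covered regions CRABP1 was higher instead of lower after knockdown. Leaving out 1 replicate makes a call easier, since 2 libraries then face 1, and gave 1 to 4, 3 to 5, 7 to 8 and 5 to 7 by islands, and 5 to 7, 5 to 7, 5 to 7 and 1 to 5 by narrow peaks, in the same order. Shared sites called went from 1 to 3 for H3K27me3 compound when scaled to the median of all shared sites, and without 1 replicate ranged from 4 to 5, 1 to 5, 24 to 27 and 21 to 25. The share of narrow peaks with a response element fell from 0.983% to 0.0983% (H3K4me1), 0.325% to 0% (H3K27me3) and 0.83% to 0.0755% (both marks) when the match had to lie in the narrow peak itself, where single H3K4me1 libraries had 0.0499% to 0.083% over all peaks. Island coverage of same-numbered libraries did not deviate together (correlations from -0.06 to 0.08). With 2 libraries per arm this cannot show whether same-numbered libraries were prepared together, so any pairing is unknown. The replicate block, which pairs libraries by number, gave 1, 3, 7 and 4 members by islands. Of the differences of single genes under other windows or equal covered length, 67 stayed within the replicate spread, 25 moved further and 1 called difference reversed. In 10 cases the sign of a difference that had not been called turned, among them CYP26A1 H3K27me3 after knockdown (1.17 to -12.8 at equal covered length) and RXRG H3K27me3 with GSK-J4 (5.59 to -4.35). The cause of these shifts was not tested.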
